A study of Mus musculus with 9 samples.

Results

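The transcripts described are those of 4 mouse genes that encode brakes of mTOR complex 1: the sestrin genes Sesn1, Sesn2 and Sesn3, and Ddit4, which encodes REDD1. They were found as every probe set that the array annotation gives to one of these symbols, which were 9 of the 45037 probe sets other than controls, or 4 of 18193 genes with a probe set of their own. Ddit4 had 1 probe set, Sesn1 had 4, and Sesn2 and Sesn3 had 2 each. Both Sesn2 probe sets, and 2 of the Sesn1 probe sets (1433711_s_at and 1454699_at), were designed from the same source sequence, so probe sets of a gene are not independent measurements of it.

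The cells were cytotoxic T lymphocytes (CTL), the killing CD8 T cells, grown from spleens of mice that carry the P14 T cell receptor transgene and are otherwise labelled wild type. All cultures were stimulated with the receptor's viral peptide and the cytokines IL-2 and IL-12 for 48 h and expanded for another 96 h, to day 6. For the final 48 h they received the solvent DMSO as control, 20 nM rapamycin or 1 uM of KU-0063794. Each group held 3 arrays, 1 for each of 3 spleens, and every spleen was split over the 3 groups. Rapamycin acts mainly on mTOR complex 1 through the protein FKBP12, whereas KU-0063794 inhibits the kinase itself and so both mTOR complexes. The study's title and design text set out to compare CTL gene expression with and without these inhibitors.

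mTOR complex 1 drives protein, lipid and nucleotide synthesis when amino acids and growth signals are plentiful. Sestrins hold it off by binding GATOR2, which otherwise relieves the block that GATOR1 places on the Rag GTPases at the lysosome; sestrin 2 lets go when it binds leucine. REDD1 acts on a different arm, through the TSC complex, which switches off the GTPase Rheb. The genes are known for induction by stress: Ddit4 by hypoxia, glucocorticoids and the amino acid stress factor ATF4, Sesn2 by ATF4 and p53, Sesn1 by p53, and Sesn1 and Sesn3 by FOXO factors.

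Signals were log2 values, and the level below which a probe set is called background was 1.45 log2, the 95th percentile of 28 genes restricted to tissues such as liver, brain and testis. The arrays had medians of 0.47 to 0.53 log2, and 29.2% to 29.8% of probe sets lay above that level. Normalization between arrays can make such values alike, and how it was done is not given, so they do not show how alike the arrays were before it. All 9 measured CD8 T cell markers were above the background level in the DMSO cultures. Pax5, Cd4, Itgam and Ncr1, which define B cells, CD4 T cells, myeloid cells and NK cells, were below it. Of the markers of other cells, those above it were 1 of 6 for B cells (Cd79b, 1.80 ± 0.55 log2, SD, n = 3), 1 of 4 for CD4 T cells and 1 of 8 for myeloid cells. None of the 2 NK cell markers reached it, nor did more than 1 of 5 markers of erythroid, platelet and stromal cells. The summed log2 signal of the last 5 was 2.71 to 2.83 on the DMSO arrays, 1.59 to 2.50 on the rapamycin arrays and 2.49 to 2.82 on the KU-0063794 arrays. For the actin control, the signal at the 3' end less that at the 5' end, a gauge of RNA integrity, came to 0.49 to 0.65 log2 on the DMSO arrays, 0.62 to 0.72 on the rapamycin arrays and 0.65 to 0.70 on the KU-0063794 arrays. The part of either in the results that follow was not tested.

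The comparison of each inhibitor with DMSO addressed its effect on these transcripts in established CTL. Ddit4 fell with both inhibitors, to 47.4% of its DMSO level with rapamycin and 49.2% with KU-0063794. Sesn1 and Sesn3 fell with KU-0063794, each on at least 1 probe set, by 39.3% and 43.0% for Sesn1 and 54.0% for Sesn3. With rapamycin no sestrin probe set passed the test on groups alone, and Sesn2 passed it with neither inhibitor. That test leaves out the pairing of cultures by spleen. With the spleen added as a block, each sestrin gene had at least 1 probe set that passed as lower with each inhibitor. No member rose. In RNA from whole cultures, fewer cells expressing a gene and less of its RNA per cell cannot be told apart.

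Counted over probe sets, 1 of 9 passed for rapamycin and 4 of 9 for KU-0063794, all lower, at a Benjamini-Hochberg adjusted p under 0.05 in limma. Of all 27022 probe sets tested, 2.61% passed for rapamycin and 2.34% for KU-0063794, with 0.951% and 1.07% lower. Comparing cultures of the same spleen, by adding the spleen as a block, raised the members' counts to 7 and 8 of 9, again all lower, where 7.77% and 7.81% of all probe sets passed, 3.34% and 3.84% lower. All 3 inhibitor arrays lay below all 3 DMSO arrays on 7 of 9 member probe sets for rapamycin and 8 of 9 for KU-0063794, beside 7.73% and 7.64% of all probe sets tested. The median log2 fold change of the 9 probe sets was -0.57 with rapamycin and -0.81 with KU-0063794, beside 0.00 and 0.01 over all probe sets tested. Both comparisons use the same 3 DMSO arrays, so their agreement is not independent evidence.

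**Figure D1:**
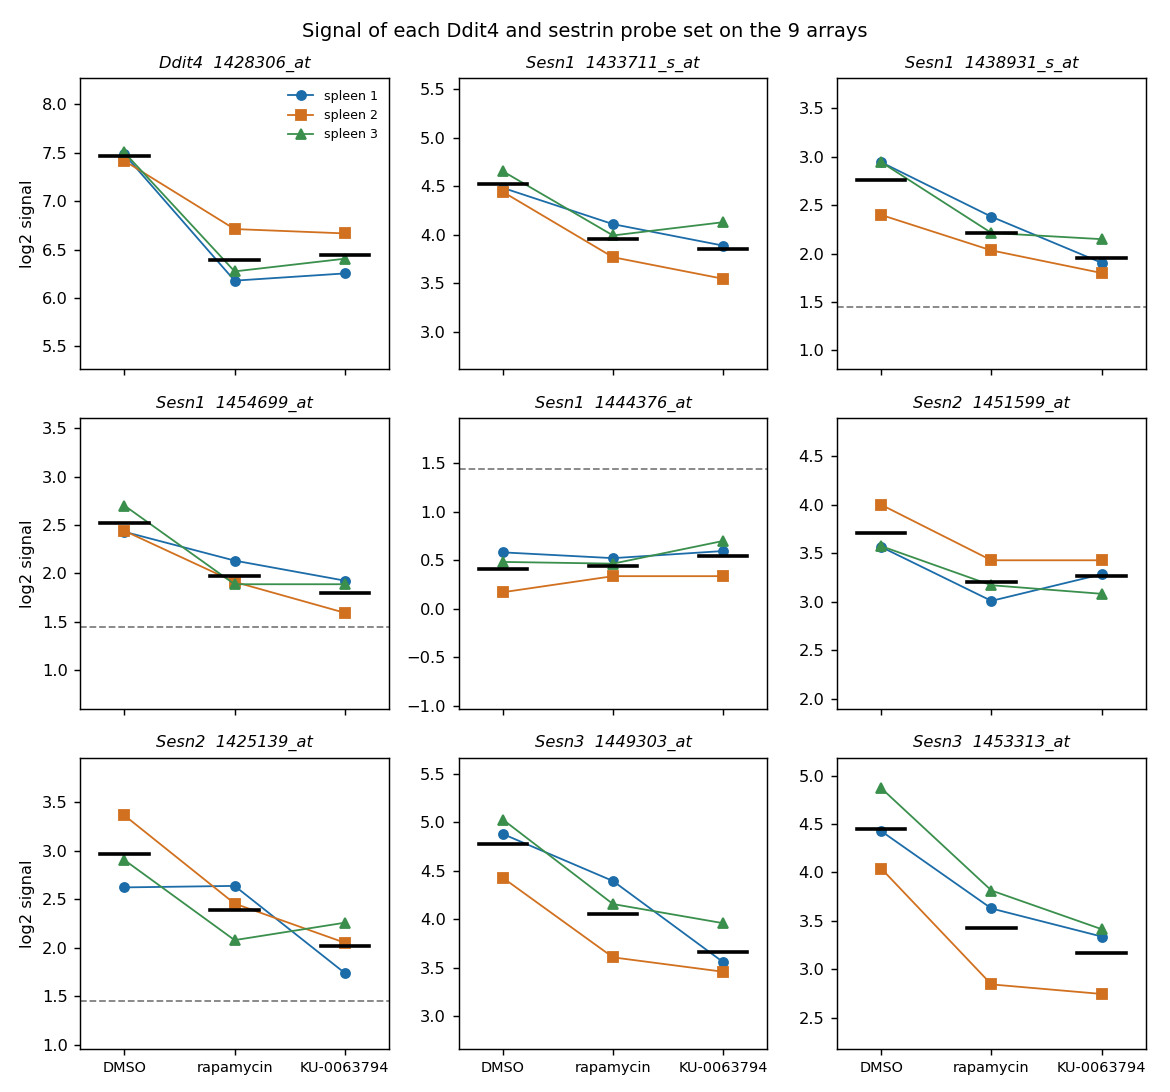
Log2 signal (vertical axis) of each of the 9 probe sets in the 3 groups (horizontal axis), with a line joining the cultures of each spleen, a black bar at the group mean and a dashed line at the background level of 1.45 log2 where it falls in range. The mean steps down from DMSO to both inhibitors in every panel but that of Sesn1 1444376_at, which stays under the dashed line, and Ddit4 reads 7.42 to 7.50 in DMSO and 6.18 to 6.71 in the other 6 cultures.

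Ddit4, the gene of the TSC-dependent brake, read 7.48, 7.42 and 7.50 log2 in the DMSO cultures of spleens 1, 2 and 3. With rapamycin it read 6.18, 6.71 and 6.27, and with KU-0063794 6.25, 6.67 and 6.41. The DMSO arrays lay above all 6 inhibitor arrays, and the rapamycin and KU-0063794 arrays overlapped. The group means were 7.47 ± 0.05 (SD, n = 3) on the DMSO arrays, 6.39 ± 0.28 on the rapamycin arrays and 6.44 ± 0.21 on the KU-0063794 arrays. The log2 fold change was -1.08 with rapamycin (SE 0.15, 95% confidence interval -1.41 to -0.74, limma adjusted p = 0.0115) and -1.02 with KU-0063794 (SE 0.15, interval -1.36 to -0.69, limma adjusted p = 0.0153). Of the probe sets tested, 0.311% and 0.488% had a fold change as low or lower. The rapamycin call was at the threshold without rapamycin replicate 3 (limma adjusted p = 0.05001). The KU-0063794 call was lost without DMSO replicate 1 (0.0610), KU-0063794 replicate 1 (0.0637) or KU-0063794 replicate 3 (0.0635), with log2 fold changes of -1.02, -0.93 and -1.01 there.

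The Ddit4 start site region is shown because its transcript fell with both inhibitors. It covers the 250 bases before the RefSeq start site at chr10:59951771-59952020 of GRCm38.p6, minus strand. Capitals mark the hypoxia-response core ACGTG, at -187 to -183 from the start site, and CCAAT boxes, which read ATTGG on the strand shown.
Ddit4: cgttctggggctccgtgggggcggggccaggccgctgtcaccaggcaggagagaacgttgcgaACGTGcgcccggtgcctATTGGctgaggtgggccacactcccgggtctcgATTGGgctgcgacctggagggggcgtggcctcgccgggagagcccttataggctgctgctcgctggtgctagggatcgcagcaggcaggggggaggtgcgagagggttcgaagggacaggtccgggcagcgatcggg
ACGTG occurred on either strand in 19.6% of 32851 promoter windows of RefSeq genes, each reaching from 250 bases before to 50 after a start site.

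Sesn3, a FOXO-induced sestrin, showed the lowest log2 fold changes among the sestrins with both inhibitors. Probe set 1449303_at read 4.88, 4.43 and 5.03 log2 on the DMSO arrays, 4.39, 3.61 and 4.16 on the rapamycin arrays and 3.56, 3.46 and 3.96 on the KU-0063794 arrays of spleens 1, 2 and 3. All 6 inhibitor arrays lay below the 3 DMSO arrays. Its log2 fold change was -1.12 with KU-0063794 (SE 0.23, 95% confidence interval -1.63 to -0.61, limma adjusted p = 0.0376) and -0.73 with rapamycin (SE 0.23, interval -1.23 to -0.22, adjusted p = 0.147; 0.0160 once spleen was blocked). The KU-0063794 call was lost without any 1 of DMSO replicates 1 and 3, rapamycin replicate 3 or the 3 KU-0063794 arrays (limma adjusted p = 0.145, 0.112, 0.0625, 0.130, 0.135 and 0.0760).

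The other Sesn3 probe set, 1453313_at, read 4.43, 4.04 and 4.87 log2 on the DMSO arrays, 3.63, 2.84 and 3.81 on the rapamycin arrays and 3.34, 2.75 and 3.41 on the KU-0063794 arrays. Here too the DMSO arrays did not overlap with the others, and spleen 2 was the lowest culture of each group. The log2 fold changes were -1.02 (SE 0.29) and -1.28 (SE 0.29). Neither passed in the test on groups alone (limma adjusted p = 0.116 and 0.0566), and both passed with the block (0.00250 and 0.000917). The KU-0063794 change also passed with only probe sets above background (limma adjusted p = 0.0398), with an intensity trend (0.0419) and with array weights (0.0373). It did not pass after quantile normalization (0.0579) or median centring (0.0537), without a filter (0.0795) or with only the 2 groups compared (0.0984). With an array or a spleen left out, it passed in 1 of 12 fits, that without rapamycin replicate 2 (0.0436).

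The region before the Sesn3 start site is shown for the lowest-changing sestrin, at chr9:14276051-14276300 of GRCm38.p6, plus strand. Capitals mark its 4 CCAAT boxes, each reading ATTGG on the strand shown.
Sesn3: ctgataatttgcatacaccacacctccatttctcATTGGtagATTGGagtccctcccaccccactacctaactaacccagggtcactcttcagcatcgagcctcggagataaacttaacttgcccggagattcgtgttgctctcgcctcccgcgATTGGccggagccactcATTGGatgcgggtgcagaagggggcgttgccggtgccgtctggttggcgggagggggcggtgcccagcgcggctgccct
CCAAT was found, on the opposite strand, in all 5 windows of the members, of which Sesn1 has 2, and on either strand in 37.4% of all promoter windows. Windows with 4 or more made up 1.06%, a count looked at only after the Sesn3 window was seen. The FOXO core TGTTTAC lay in no Sesn3 window and in 1 Sesn1 window, at bases 23 to 29 after the start site, and in 3.65% of all windows. The C/EBP-ATF core TGATGNAA lay in none of the 5 windows and in 3.97% of all.

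Sesn1, a sestrin induced by p53 and FOXO factors, was measured by 4 probe sets, of which 3 were above background on all 9 arrays and lower with both inhibitors. Probe set 1433711_s_at, whose suffix marks probes that match several transcripts, had the highest signal of the 4 and read 4.48, 4.44 and 4.65 log2 on the DMSO arrays, 4.11, 3.77 and 3.99 on the rapamycin arrays and 3.89, 3.55 and 4.13 on the KU-0063794 arrays. The groups with and without inhibitor did not overlap. Its log2 fold change was -0.57 with rapamycin and -0.67 with KU-0063794 (SE 0.15 for both, limma adjusted p = 0.0877 and 0.0529; 0.0162 and 0.00900 once spleen was blocked). The KU-0063794 change also passed with only probe sets above background (0.0355), 1 probe set per gene (0.0396), an intensity trend (0.0446) or array weights (0.0394). It did not pass after quantile normalization (limma adjusted p = 0.0577) or median centring (0.0522), without a filter (0.0703) or with only the 2 groups compared (0.127). With an array or a spleen left out, it passed in 0 of 12 fits.

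Probe set 1438931_s_at carries the same suffix, for probes that match several transcripts. It read 2.94, 2.4 and 2.94 log2 on the DMSO arrays, 2.38, 2.03 and 2.21 on the rapamycin arrays and 1.90, 1.80 and 2.15 on the KU-0063794 arrays. The DMSO array of spleen 2 was only just above the highest inhibitor array, that of spleen 1 with rapamycin. The log2 fold change was -0.81 with KU-0063794 (SE 0.16, 95% confidence interval -1.18 to -0.44, limma adjusted p = 0.0382) and -0.55 with rapamycin (SE 0.16, adjusted p = 0.130, 0.0210 in the blocked fit). The rapamycin change also passed in 1 of 12 fits with an array or a spleen left out, that without DMSO replicate 2 (limma adjusted p = 0.0376). The KU-0063794 call was lost without any 1 array except DMSO replicate 2: without DMSO replicates 1 or 3 the limma adjusted p was 0.150 or 0.112, without rapamycin replicates 1, 2 or 3 it was 0.0558, 0.0554 or 0.0639, and without KU-0063794 replicates 1, 2 or 3 it was 0.127, 0.136 or 0.0793.

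Probe set 1454699_at, built from the same source sequence as 1433711_s_at, read 2.43, 2.44 and 2.70 log2 on the DMSO arrays, 2.13, 1.91 and 1.89 on the rapamycin arrays and 1.93, 1.59 and 1.89 on the KU-0063794 arrays. The log2 fold change was -0.72 with KU-0063794 (SE 0.12, 95% confidence interval -0.99 to -0.45, limma adjusted p = 0.0220) and -0.55 with rapamycin (SE 0.12, adjusted p = 0.0508, or 0.0225 with the block). The KU-0063794 call was lost without DMSO replicates 1 or 3 (limma adjusted p = 0.0665 and 0.0598) or KU-0063794 replicates 1, 2 or 3 (0.0639, 0.0762 and 0.0698). The rapamycin change passed after quantile normalization (0.0355) and with only probe sets above background (0.0335). It did not pass after median centring (0.0571), without a filter (0.0653), with an intensity trend (0.0616), with array weights (0.0524) or with only the 2 groups compared (0.102). With an array or a spleen left out, the rapamycin change passed in 1 of 12 fits, that without KU-0063794 replicate 2 (0.04945).

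The fourth Sesn1 probe set, 1444376_at, is the one that differed in sign. It was under the background level on all 9 arrays, at 0.58, 0.17 and 0.48 log2 on the DMSO arrays, 0.52, 0.34 and 0.47 on the rapamycin arrays and 0.60, 0.34 and 0.70 on the KU-0063794 arrays. Its log2 fold changes of 0.03 (95% confidence interval -0.26 to 0.32) and 0.13 (interval -0.16 to 0.42) did not pass (limma adjusted p = 0.952 and 0.713), and the groups overlapped. Among the 3 probe sets above background, the difference between any pair changed by -0.09 to 0.15 log2 between groups, with two-sided exact permutation p from 0.20 to 1.00, where 3 against 3 arrays allow no p under 0.10. The signal of each of these 3 minus that of 1444376_at changed by -0.94 to -0.21 log2 between groups. Every such change had the smallest possible p, 0.10 in that permutation test (0.267 adjusted).

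The second Sesn1 start site window is shown because it held the only match to the p53 decamer among the 5 windows, a motif present in 8.36% of all windows. It covers chr10:41887189-41887438 of GRCm38.p6, plus strand. The 10 bases in capitals are that match, at -173 to -164 from the start site, and the 5 in capitals after them are a CCAAT box on the opposite strand.
Sesn1: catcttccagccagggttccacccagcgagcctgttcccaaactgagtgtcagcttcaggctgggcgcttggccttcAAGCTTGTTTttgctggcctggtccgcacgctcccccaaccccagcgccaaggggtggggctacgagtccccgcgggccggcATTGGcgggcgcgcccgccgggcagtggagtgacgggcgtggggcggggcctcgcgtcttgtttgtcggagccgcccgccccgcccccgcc
Which of the 2 Sesn1 start sites these cells used was not analysed here.

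Sesn2, whose protein binds leucine, was measured by 2 probe sets. Probe set 1451599_at read 3.57, 4.0 and 3.57 log2 on the DMSO arrays, 3.01, 3.43 and 3.17 on the rapamycin arrays and 3.28, 3.43 and 3.08 on the KU-0063794 arrays. DMSO arrays lay above all inhibitor arrays. The log2 fold changes were -0.51 and -0.45 (SE 0.15 for both), which did not pass (limma adjusted p = 0.135 and 0.189) but did in the blocked fit (0.0152 and 0.0230).

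Probe set 1425139_at of Sesn2 read 2.62, 3.36 and 2.90 log2 on the DMSO arrays, 2.64, 2.45 and 2.08 on the rapamycin arrays and 1.74, 2.05 and 2.26 on the KU-0063794 arrays. The rapamycin culture of spleen 1 matched its DMSO culture, so these 2 groups overlapped, while the KU-0063794 arrays lay below the DMSO arrays. With rapamycin the log2 fold change was -0.57 (SE 0.21, limma adjusted p = 0.229, or 0.147 with the block), the only probe set above background that passed in neither of these fits. With KU-0063794 it was -0.95 (SE 0.21, limma adjusted p = 0.0537, or 0.0299 with the block). It also passed after quantile normalization (0.0458), with only probe sets above background (0.0374), an intensity trend (0.0455) or array weights (0.0389). The KU-0063794 change did not pass after median centring (limma adjusted p = 0.0571), without a filter (0.0743) or with only the 2 groups compared (0.125). With an array or a spleen left out, it passed in 0 of 12 fits. The signal difference between the 2 Sesn2 probe sets changed by 0.06 log2 with rapamycin and by 0.50 with KU-0063794 (two-sided exact permutation p = 0.80 and 0.20).

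**Figure D2:**
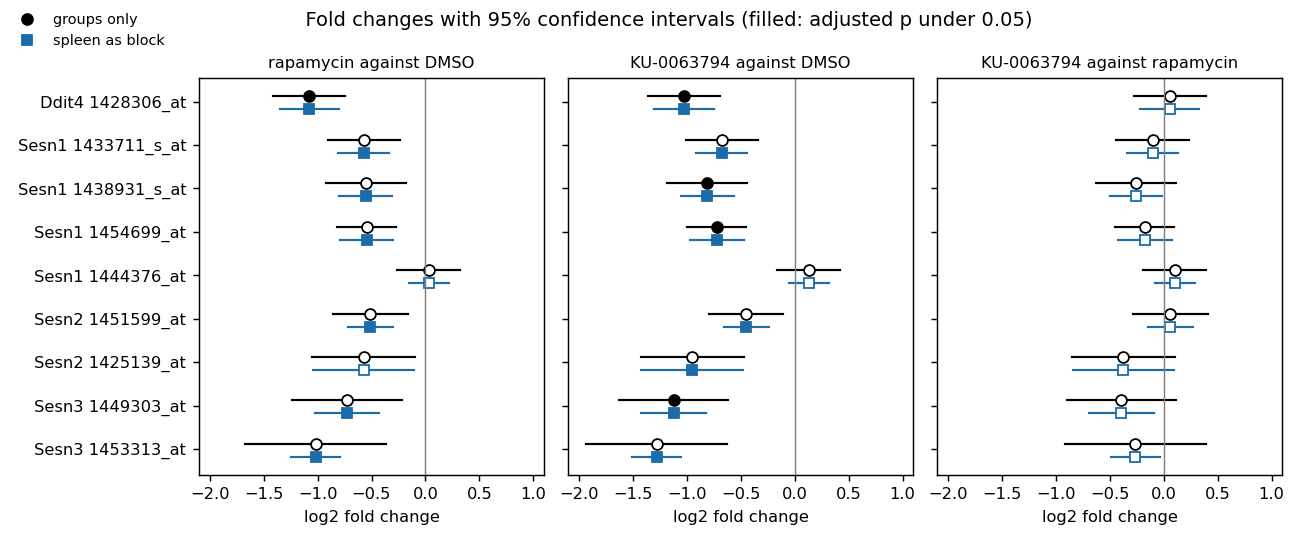
Log2 fold change (horizontal axis) of each probe set (vertical axis) in the 3 comparisons, with 95% confidence intervals, from the test on groups only (black circles) and with the spleen as a block (blue squares); filled symbols have an adjusted p under 0.05. Filled circles number 1, 4 and 0 and filled squares 7, 8 and 0, and every filled symbol lies left of 0.

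When KU-0063794 was compared directly with rapamycin, 0 of 9 member probe sets passed in limma, with or without the block. Across all 27022 probe sets 0% were called, so this comparison called nothing anywhere. At an unadjusted p under 0.05, 0 of 9 members passed without the block and 3 with it, beside 4.62% and 8.84% of all probe sets. Those 3 were Sesn1 1438931_s_at and both Sesn3 probe sets, all with lower means under KU-0063794.

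Ddit4 was 0.05 log2 higher with KU-0063794 than with rapamycin (95% confidence interval -0.28 to 0.39). For Sesn3 the difference was -0.39 (interval -0.90 to 0.11) on 1449303_at and -0.26 (interval -0.91 to 0.39) on 1453313_at. For the 3 Sesn1 probe sets above background it was -0.10, -0.26 and -0.18, the widest interval being -0.63 to 0.11. Sesn2 gave 0.06 (interval -0.28 to 0.41) on 1451599_at and -0.37 (interval -0.85 to 0.10) on 1425139_at. The order of levels was thus DMSO first for every probe set above background, with rapamycin and KU-0063794 as neighbours whose arrays overlapped throughout.

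**Figure D3:**
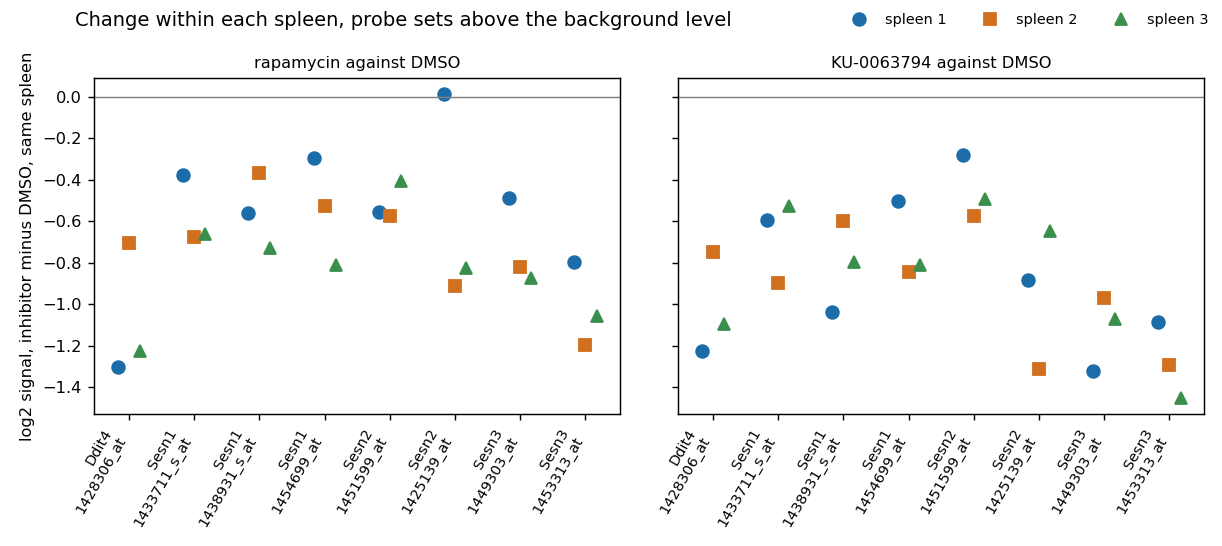
Log2 signal with inhibitor minus DMSO in the same spleen (vertical axis) for the 8 probe sets above background (horizontal axis), with a symbol per spleen. Of 48 differences, only that of Sesn2 1425139_at with rapamycin in spleen 1, at 0.015 log2, is not below 0, and for Ddit4 spleen 2 is nearest to 0 in both panels.

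Spleen 2 lay on different sides of the mean for different members. Averaged over its 3 cultures, spleen 2 stood above the mean of all 9 arrays for Ddit4 (0.17 log2) and both Sesn2 probe sets (0.23 and 0.17). It stood below it for all 4 Sesn1 probe sets (-0.12 to -0.23) and both Sesn3 probe sets (-0.33 and -0.47). For Ddit4 the offset was in the inhibitor cultures alone: spleen 2 had the lowest of the 3 DMSO signals and the highest signal with either inhibitor. Its Ddit4 fell by 0.70 log2 with rapamycin and by 0.75 with KU-0063794, while the log2 fold changes were -1.3 and -1.23 in spleen 1 and -1.23 and -1.1 in spleen 3. These differences between spleens were not tested.

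The rest of the pathway was described from lists of known genes, each gene represented by whichever of its probe sets had the greatest mean. In the amino acid arm that the sestrins act on, which holds the GATOR, Rag, Ragulator and folliculin genes, 0 of 24 genes tested passed with either inhibitor (limma; 1 lower with the block for each), and the median log2 fold changes were -0.06 and -0.07. The blocked calls were Nprl2, a GATOR1 subunit, with rapamycin (-0.48, adjusted p = 0.0298) and the GTPase gene Rraga with KU-0063794 (-0.45, adjusted p = 0.0425). At an unadjusted p under 0.05, 4 of the 24 passed with rapamycin and 3 with KU-0063794, beside 15.1% and 15.4% of all probe sets.

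Of all probe sets, 2.61% passed with rapamycin and 2.34% with KU-0063794. In the TSC and Rheb arm that REDD1 acts on, 1 of 12 genes passed and rose, and none fell. This was Rhebl1, which encodes a close relative of Rheb, at 3.30 ± 0.26 log2 (SD, n = 3) on the DMSO arrays, 4.10 ± 0.15 on the rapamycin arrays and 4.11 ± 0.01 on the KU-0063794 arrays (limma adjusted p = 0.0177 and 0.0183). Tsc1, Tsc2 and Rheb did not pass in either comparison. Among 17 genes of the mTOR complexes, their inhibitors and substrates, 2 rose and 1 fell with rapamycin and 1 rose and 1 fell with KU-0063794. Eif4ebp1, which encodes the translation repressor 4E-BP1, fell with both (log2 fold change -1.01 and -1.08). Rps6, the ribosomal S6 protein gene, rose with both (0.52 and 0.40), although its other probe set, below background, had the opposite sign with rapamycin, and Pdcd4, a translation inhibitor gene, rose with rapamycin (0.82). With KU-0063794 the log2 fold change of Pdcd4 was 0.41, which passed with the block (limma adjusted p = 0.0246) and not without it (0.173). Ddit4l and Deptor, which encode further mTOR brakes, were below background in DMSO cultures, at 0.33 and 1.12 log2.

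Genes that share inducers with the members moved in different directions. Of all probe sets, 2.61% passed with rapamycin and 2.34% with KU-0063794, or 7.77% and 7.81% with the block. Of 24 ATF4 targets tested, a class that takes in Ddit4 and Sesn2 although neither was listed, 10 fell with rapamycin and 7 with KU-0063794, none rose, and 17 were lower with the block in each. Their medians were -0.47 and -0.54. Psph, for serine synthesis, and Asns, for asparagine synthesis, fell the most with rapamycin among those called (-1.23 and -1.22), and Trib3, an AKT-binding pseudokinase gene, and Ddit3, which encodes CHOP, with KU-0063794 (-1.20 and -1.06).

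Of 18 p53 targets 1 fell with each inhibitor and none rose: Cdkn1a, the p21 gene (-0.77 and -0.87). With the block 3 were lower with rapamycin, Ccng1 and Mdm2 in addition, and 2 with KU-0063794, Ccng1 in addition. Their medians were -0.21 and -0.13. Of 19 FOXO targets none fell and 2 rose with rapamycin, the cyclin gene Ccng2 (1.04) and Klhl24 (1.60), and 1 rose with KU-0063794, Ccng2 (0.68), opposite in direction to Sesn1 and Sesn3. With the block 3 were higher with KU-0063794, Klhl24 (0.76) and the cell death gene Bcl2l11 (0.72) in addition. The medians were 0.14 and 0.00. Of 22 hypoxia response genes 1 fell, the oxidase gene Ero1a (-1.24 and -1.35), and 1 rose, the demethylase gene Kdm3a (0.70 and 0.63), with either inhibitor. With the block 14 hypoxia genes were lower and 1 was higher, and the medians were -0.47 and -0.49. Of 10 glucocorticoid response genes Sgk1, a kinase gene, fell (-0.65 and -0.69), and of 8 NRF2 targets the haem oxygenase gene Hmox1 fell with rapamycin (-0.73). With the block, 3 glucocorticoid response genes were lower with KU-0063794, Errfi1 and Tsc22d3 in addition, as were 2 NRF2 targets, Hmox1 (-0.59) and Srxn1 (-0.36). Of all probe sets, 7.77% and 7.81% passed with the block, and 15.1% and 15.4% had an unadjusted p under 0.05. At that unadjusted level 17 and 20 of 24 ATF4 targets passed, 4 and 3 of 18 p53 targets, and 5 and 4 of 19 FOXO targets. So did 14 and 14 of 22 hypoxia response genes, 2 and 2 of 10 glucocorticoid response genes and 2 and 3 of 8 NRF2 targets.

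**Figure D4:**
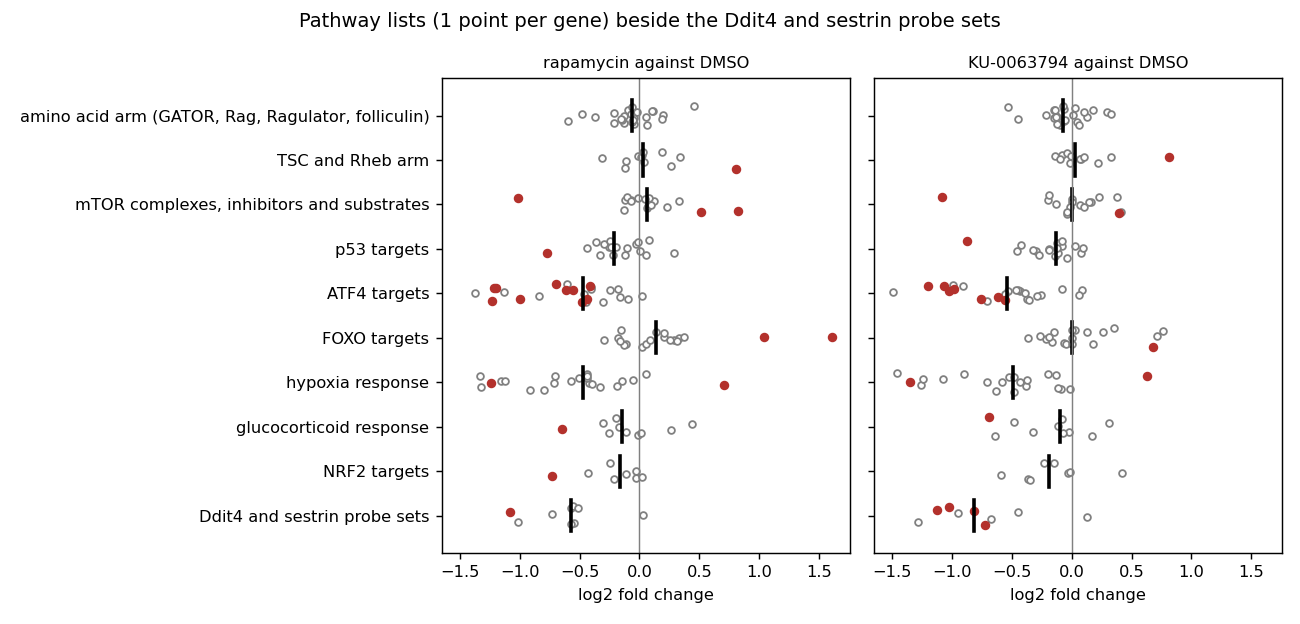
Log2 fold change (horizontal axis) of each tested gene of 9 pathway lists and, in the lowest row, of the 9 member probe sets, with rapamycin (left) and KU-0063794 (right); filled red points have an adjusted p under 0.05 and a black bar marks the median of the row. The ATF4 and hypoxia rows have medians of -0.47 to -0.54, the amino acid arm row lies around 0, and the member row has medians of -0.57 and -0.81.

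The probe sets most like each member over the 9 arrays were found by Pearson correlation among 22945 tested probe sets of single genes. Probe sets of the same gene are counted in that number but were left out of the lists of closest probe sets. These arrays share 3 groups and 3 spleens, so the values are descriptions. For Ddit4 they were Ehd1 (r = 0.99), Sod2 (0.98), Avpi1 (0.98), Ebpl (0.97) and Wdr26 (0.97), and 149 probe sets, that of Ddit4 itself included, exceeded 0.9. Ehd1, an endocytic recycling gene, had log2 fold changes of -1.03 with rapamycin and -0.95 with KU-0063794. Those of Avpi1 were -1.25 and -1.19, and those of Ebpl -0.50 and -0.49. All of these passed in limma, while Sod2 and Wdr26 passed with neither inhibitor. Such falls follow from picking genes by their correlation with Ddit4 on the same arrays, so they are no further evidence. For Sesn1 1433711_s_at they were Ghitm (0.97), Surf4 (0.96), Derl1 (0.95), Rida (0.95) and Lss (0.95). Derl1 passed with both inhibitors, Rida and Lss with KU-0063794 only, and Ghitm and Surf4 with neither. Rida was below background, at a mean of 1.11 log2. For Sesn2 1451599_at they were Sgtb (0.97), Arpc2 (0.97), M6pr (0.97), Ppp1r12b (0.97) and Foxo3 (0.97), of which none passed with either inhibitor. Sgtb and Ppp1r12b were below background, at means of 0.46 and 0.89 log2.

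For Sesn3 1449303_at the closest were Cxcr6 (r = 0.99), a chemokine receptor gene, Cemip2 (0.98), the Sesn1 probe set 1438931_s_at (0.98), Fbxo33 (0.98) and Plgrkt (0.98). Cemip2 was below background, at a mean of 1.38 log2. Among the probe sets searched, those of other genes, a Sesn1 probe set was thus 1 of the 5 nearest to Sesn3. In all, 110 probe sets, those of Sesn3 itself included, exceeded 0.9.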

How the data were processed

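The authors' deposited table held log2 signals per probe set for the 9 arrays, made with Affymetrix Expression Console 1.3.1 per the submitters' processing notes; how background was corrected and arrays normalized is not given in the sources used here. Hybridisation controls served as a check of the log2 scale: they rose by 1.04 per doubling of nominal concentration. Values were used as deposited, and no column was left unused. Names came from the array annotation; 34945 probe sets had a single symbol, 932 had several and 9160 were not listed.

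Probe sets with a mean above the 40th percentile (0.31 log2) were tested, 27022 in all, including all 9 members. limma 3.58.1 in R 4.3.3 (lmFit, eBayes) fitted the 3 groups over 9 arrays, with Benjamini-Hochberg adjustment over all probe sets tested. Standard errors and intervals come from that fit. Each spleen gave 1 array per group, so replicate numbers pair the arrays; their deviations from group means correlated at 0.341 to 0.495 in the 9 pairs of one spleen and at -0.350 to -0.0985 in the other 18. Results with the spleen as a block are given beside the calls that it changes. The number of arrays limits the precision. Genes were named by rule: every member probe set, up to 2 called genes per list and direction with the same sign in 3 spleens, and the 5 closest correlates; Nprl2, Rraga, Tsc1, Tsc2, Rheb, Ddit4l, Deptor, Mdm2, Ccng1, Bcl2l11, Errfi1, Tsc22d3 and Srxn1 were chosen after their values were seen. Members, lists and tests were chosen with earlier results of these data known. The fit on groups alone was tested on simulated data with independent noise and no spleen effect, and the blocked fit was not. Promoter sequences are RefSeq's (GRCm38.p6), found for all 4 genes.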

Additional observations from a re-analysis of the deposited data

How the results depend on the processing

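The 8 member probe sets above background kept a negative log2 fold change against DMSO under all alternatives tried, in 172 of 172 values for each inhibitor. Many of these values repeat the main estimate, because blocks, filters, the intensity trend and fits of 2 groups leave it unchanged. Only other normalizations, array weights and left-out arrays of the 2 groups compared could move it. Their calls moved. For rapamycin, where 1 member probe set passed, 7 passed with the replicate block (the spleen), 6 with it as a random block, 2 after quantile normalization or with only probe sets above background, and 0 when only the 2 groups compared were fitted. For KU-0063794, where 4 passed, the counts were 8 and 7 with the fixed and random block, 7 with only probe sets above background, an intensity trend or array weights, 2 without a filter, and 0 with only the 2 groups compared. Fits of 2 groups use fewer arrays and called 0 and 11 probe sets in all. The cause of the other moves was not tested.

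Leaving out 1 array or 1 spleen gave 0 to 2 calls for rapamycin and 0 to 4 for KU-0063794, and 0 without any of the 3 spleens, where at most 5 probe sets of all were called. With arrays or spleens left out the change of Sesn1 1444376_at with rapamycin ranged from -0.091 to 0.11 log2. The KU-0063794 minus rapamycin difference ranged from -0.059 to 0.215 for Ddit4, from -0.24 to 0.052 for Sesn1 1433711_s_at and from -0.044 to 0.175 for Sesn2 1451599_at, so their signs are not settled. It ranged from -0.617 to -0.173 for Sesn3 1449303_at, from -0.554 to -0.052 for Sesn3 1453313_at and from -0.651 to -0.112 for Sesn2 1425139_at.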
